A study of Homo sapiens with 18 samples.

Results

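HDM201 (siremadlin) in irradiated, senescent fibroblasts was examined across all genes by setting the 3 libraries of irradiated cells given the compound (IR_HDM201) against the 3 libraries of irradiated cells given the solvent (IR_DMSO). These 6 libraries were picked by their sample labels alone, out of 18 in the series. All were poly(A) RNA from wild-type IMR90 cells, a strain of primary human lung fibroblasts kept at low oxygen. IR_HDM201 and IR_DMSO cells were irradiated, treated from day 4 with HDM201 or DMSO, and collected on day 11, so that treatment lasted 7 days. Proliferating cells given HDM201 (Prolif_HDM201) or DMSO (Prolif_DMSO), with 3 libraries each, carry no irradiation and serve here to ask whether the compound did the same in cells outside senescence. The labels give no start or length of treatment for the proliferating cells. In comparisons between the states, cell state and exposure time therefore cannot be told apart. Irradiated cells given RG7388 (IR_RG7388), another MDM2 inhibitor at another dose, appear only as values side by side.

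MDM2 is the ubiquitin ligase that binds the transcription factor p53 and marks it for destruction. HDM201 occupies the pocket of MDM2 that p53 uses, so MDM2i treatment is known to stabilize p53 and raise its target genes, among them CDKN1A, whose product p21 stops the cell cycle. Senescent fibroblasts stay arrested and secrete the SASP, a mixture of cytokines, chemokines, proteases and growth factors, much of which depends on the transcription factor NF-kB. The study set the working dose of its inhibitors by the suppression of IL8, the product of CXCL8, so the fall of CXCL8 given below is not independent of that choice.

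Libraries held 21609198 to 62011698 counted reads. Levels are CPM, the counts of a gene scaled to a common library size with TMM factors, which correct for library composition, and changes are log2 fold changes of IR_HDM201 over IR_DMSO ± their standard error. A gene was called at an adjusted p under 0.05 in edgeR's quasi-likelihood test, and only called genes are said to rise or fall. IR_DMSO replicate 1 stood apart. Mitochondrially encoded genes took 0.668% of its counts, against 2.38% to 3.21% in the IR_HDM201 libraries and 3.13% and 3.15% in the other IR_DMSO libraries. The p-values rest on the spread among replicates over all 18 libraries of the series, fitted together. The labels do not say whether replicates were separate cultures. For its cell culture work the paper counts a single well of a culture plate as a biological replicate. The spread may therefore be that between wells only, and partly or wholly technical. Markers of mesenchymal cells summed to 33115 to 33793 CPM in IR_HDM201 and 26563 to 32752 CPM in IR_DMSO, high in every library. Leukocyte markers summed to 25.6 to 29.0 CPM in IR_HDM201 and 28.6 to 32.1 CPM in IR_DMSO, and endothelial markers to 120.5 to 124 CPM and 124 to 144 CPM in the same groups. Epithelial markers summed to 289 to 404 CPM in IR_HDM201 against 157 to 174 CPM in IR_DMSO, and 9 of the 15 stayed under 1 CPM in all 6 libraries. Of the 6 tested, the keratins KRT8, KRT18 and KRT19 rose, the claudin CLDN7 fell (-1.56, adjusted p = 0.0004) and 2 were not called. No marker was at 0 in all 6 libraries. The part of other cell types in the results was not tested, and in bulk RNA fewer cells of a type and less RNA per cell cannot be told apart.

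HDM201 changed 3861 of 18151 genes tested in irradiated cells. Of these, 1808 rose (9.96% of genes tested) and 2053 fell (11.3%), but the falls were deeper. At least 2-fold, 171 genes rose (0.942%) and 989 fell (5.45%). The median log2 fold change was 0.51 among genes that rose and -0.96 among genes that fell, against -0.02 over all genes tested. Genes that rose had a median level of 49.8 CPM and 92.6% of them encode proteins, against 9.29 CPM and 77.0% over all genes tested. Those that rose at least 2-fold had a median of 3.19 CPM, with 75.4% encoding proteins. Genes that fell had a median of 6.08 CPM, and 11.3% of them were long noncoding RNAs, against 14.6% of all genes tested. Those that fell at least 2-fold had a median of 1.48 CPM. Long noncoding RNAs were 18.4% of them and 18.7% of genes that rose at least 2-fold. With a filter of at least 1 CPM in 3 libraries, 139 genes rose and 774 fell at least 2-fold. The libraries of the groups did not overlap for 6568 genes (36.2%). The first principal component of the 6 libraries carried 56.2% of the variance and separated the groups, with IR_HDM201 at 30.2 to 45.5 and IR_DMSO at -43.2 to -32.4. The second carried 16.8% and spread the IR_HDM201 libraries, with replicate 1 at 35.6, replicate 2 at -33.4 and replicate 3 at 5.63. IR_DMSO libraries lay at -4.44 to 0.445 on it. The balance of rises and falls depended on scaling. With plain library totals the median over all genes moved by -0.147 on the log2 scale, and 975 genes rose while 3354 fell, so the share of rises among called genes was 22.5% in place of 46.8%. Without IR_DMSO replicate 1, 1485 genes rose and 1838 fell. In a fit of only the 6 libraries compared, 1349 rose and 1585 fell, 2934 in all.

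**Figure D1:**
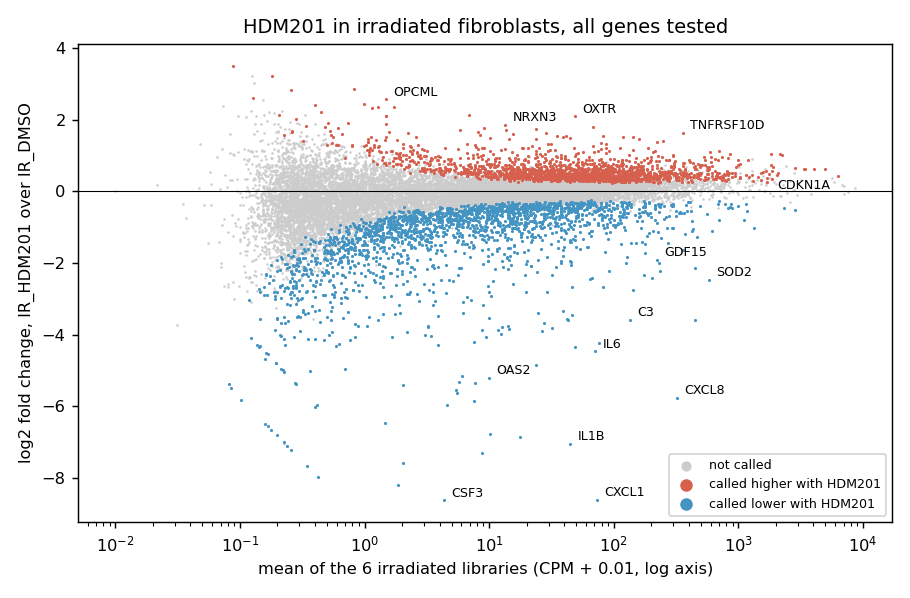
Log2 fold change of IR_HDM201 over IR_DMSO (vertical axis) against the mean level of the 6 irradiated libraries (horizontal axis, CPM + 0.01, log scale), 1 point per gene tested, red for the 1808 genes called higher and blue for the 2053 called lower. The falls reach -8.63 (CSF3, 2 counts over the IR_HDM201 libraries) and the called rises reach 3.51. OPCML, the highest labelled rise, stands at 2.57.

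The deepest falls were in NF-kB cytokines and chemokines, the inflammatory core of the SASP. Of 33 such genes tested, 25 fell, all but 1 of them at least 2-fold, and the rest were not called (list median -2.78). With the compound the summed level of the list was 285, 329 and 316 CPM, against 1996, 2056 and 1891 CPM in IR_DMSO. The sums did not overlap, and those of IR_HDM201 lay near the 249 to 316 CPM of Prolif_HDM201 and the 287 to 305 CPM of Prolif_DMSO.

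The CXC chemokines of the list, a family with many members that draw neutrophils, had a median of -6.77 over 7 tested, 6 of which fell. CXCL8 (chr4:73740519-73743716, plus strand, hg38) had 12.7, 10.1 and 12.3 CPM in IR_HDM201 and 709, 622 and 574 CPM in IR_DMSO (-5.76 ± 0.16, adjusted p = 5.9e-17), the smallest p of all genes. CXCL1 stood at 0.486, 0.308 and 0.178 CPM in IR_HDM201 and at 158, 159.9 and 125 CPM in IR_DMSO (-8.61 ± 0.32, adjusted p = 5.4e-13). Every IR_HDM201 library was below every IR_DMSO library for either gene. CXCL2, CXCL3, CXCL5 and CXCL6 changed by -5.62 to -7.29, and since these chemokines share similar sequence, their reads may be split between copies. Among CC chemokines, CCL2, which draws monocytes, averaged 50.8 ± 3.81 CPM in IR_HDM201 and 202 ± 57.8 CPM in IR_DMSO (SD, n = 3 each; -1.99 ± 0.15). CCL20, which draws lymphocytes, averaged 0.129 ± 0.0398 CPM with the compound and 8.95 ± 1.31 CPM without it (-5.95 ± 0.40).

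Interleukins fell less evenly, with 8 of 13 called and a median of -1.33. IL6, the pleiotropic cytokine of the SASP, had 5.58, 6.94 and 6.0 CPM in IR_HDM201 against 112, 159 and 135 CPM in IR_DMSO (-4.47 ± 0.16, adjusted p = 6.6e-15). IL1B (chr2:112829751-112836816, minus strand), an upstream trigger of NF-kB, had 0.547, 0.835 and 0.755 CPM against 91.4, 94.6 and 80.9 CPM in IR_DMSO (-7.05 ± 0.25). IL1A, its membrane-bound relative, was at 0.0456, 0.571 and 0.400 CPM in IR_HDM201 and 11.8, 17.4 and 15.3 CPM in IR_DMSO (-5.87 ± 0.45). The groups were far apart for all 3 genes, although the IL1A libraries with the compound differed among themselves. CSF3, the granulocyte colony stimulating factor, gave 2 counts over the IR_HDM201 libraries and 1080 over the IR_DMSO libraries, a ratio of IR_DMSO to IR_HDM201 of 482 (95% counting interval 133 to 3983). LIF, an IL6-family cytokine that is also a p53 target, averaged 93.2 ± 7.21 CPM with the compound and 372 ± 13.6 CPM with DMSO (-1.999 ± 0.11).

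The NF-kB machinery itself fell too. Of 34 subunits and feedback genes tested, 23 fell and the rest were not called (median -0.96), and the summed level was 1332, 1290 and 1365 CPM in IR_HDM201 against 3419, 3118 and 2986 CPM in IR_DMSO. RELA, the main activating subunit, was not called (113 ± 1.47 CPM in IR_HDM201 and 101 ± 17.4 CPM in IR_DMSO, adjusted p = 0.42), and its small difference changed sign with FPKM values. RELB, a subunit of the noncanonical pathway, fell by 0.85 ± 0.15 on the log2 scale. The inhibitors that NF-kB induces against itself fell more. NFKBIA, which holds NF-kB in the cytoplasm, had 21.7, 22.8 and 19.6 CPM in IR_HDM201 and 131, 107 and 103 CPM in IR_DMSO (-2.41 ± 0.12). TNFAIP3, an enzyme that removes ubiquitin from the signaling complex, had 7.45, 6.24 and 5.60 CPM against 83.1, 79.2 and 70.3 CPM in IR_DMSO (-3.58 ± 0.13). The groups did not overlap for either inhibitor. ZC3H12A, an RNase that degrades cytokine mRNA, changed by -3.41 ± 0.15, NFKBIZ, a nuclear cofactor, by -2.43 ± 0.12, and TNFAIP2 by -2.66 ± 0.12. SOD2, the mitochondrial superoxide dismutase and an NF-kB target, averaged 179 ± 21.9 CPM in IR_HDM201 and 989.6 ± 142 CPM in IR_DMSO (-2.46 ± 0.11, adjusted p = 3.5e-13).

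The promoters of 3 of these genes are shown because the genes are among the list members of smallest p whose promoter holds the NF-kB consensus, which is in capitals. The sequences are RefSeq promoters of build GRCh38.p14, 250 bases before to 50 bases after the start, at chr7:22726950-22727249 (plus strand) for IL6, chr4:73869143-73869442 (plus) for CXCL1 and chr6:137867009-137867308 (plus) for TNFAIP3. In IL6 the match began 73 bases before the start, in CXCL1 a pair of overlapping matches began 79 and 78 bases before it, and in TNFAIP3 matches began 67 and 55 bases before it. The consensus was found on either strand in 10 of 24 promoters of the cytokine list (41.7%), in 9 of 30 of the subunit and feedback list (30.0%) and in 6.63% of 12290 promoters of genes tested. It was in 10.0% of 619 promoters of genes that fell at least 2-fold and in 5.66% of 106 that rose at least 2-fold. The lists were written as NF-kB genes and every tested member counts, called or not, so their shares do not measure an effect of HDM201. The same holds for the other lists searched for motifs below. A match is a description of the letters, not a bound site.
IL6: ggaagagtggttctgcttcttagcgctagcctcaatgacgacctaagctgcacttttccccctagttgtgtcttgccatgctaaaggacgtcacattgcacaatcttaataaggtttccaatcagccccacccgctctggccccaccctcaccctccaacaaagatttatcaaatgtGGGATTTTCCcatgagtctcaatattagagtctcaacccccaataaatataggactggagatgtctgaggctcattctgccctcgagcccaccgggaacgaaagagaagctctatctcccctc
CXCL1: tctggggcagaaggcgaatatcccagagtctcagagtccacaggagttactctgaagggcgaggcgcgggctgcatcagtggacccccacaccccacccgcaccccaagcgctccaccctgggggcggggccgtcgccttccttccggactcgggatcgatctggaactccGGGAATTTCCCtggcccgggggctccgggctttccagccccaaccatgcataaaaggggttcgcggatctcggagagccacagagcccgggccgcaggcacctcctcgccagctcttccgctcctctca
TNFAIP3: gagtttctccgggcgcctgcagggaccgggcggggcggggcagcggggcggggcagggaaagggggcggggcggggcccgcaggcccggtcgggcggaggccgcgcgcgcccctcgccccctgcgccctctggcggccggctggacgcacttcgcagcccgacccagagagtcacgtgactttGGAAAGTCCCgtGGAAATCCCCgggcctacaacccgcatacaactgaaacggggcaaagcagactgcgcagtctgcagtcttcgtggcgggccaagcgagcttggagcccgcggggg

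Receptors and sensors upstream of NF-kB went the same way. Of 20 innate receptors and inflammasome genes tested, 12 fell and the rest were not called (median -0.71). IL1R1, the signaling receptor of IL1A and IL1B, averaged 51.6 ± 5.83 CPM in IR_HDM201 and 98.7 ± 18.6 CPM in IR_DMSO (-0.93 ± 0.12). CASP1, the protease that matures IL1B, changed by -1.61 ± 0.19, and TLR3, the receptor for RNA duplexes, by -2.34 ± 0.48. IL1RL1, the receptor of the alarmin IL33, changed by -3.41 ± 0.50 and shares exonic sequence with IL18R1, so its reads may belong in part to that gene.

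Interferon-stimulated genes formed the most uniform list. Of 51 tested, 47 fell, 40 of them at least 2-fold, and the other 4 were not called (median -2.41). Their summed level was 1197, 1478 and 1356 CPM in IR_HDM201 against 4111, 3933 and 3726 CPM in IR_DMSO. IFIT1, which binds foreign RNA caps, had 4.41, 12.7 and 6.49 CPM in IR_HDM201 and 149, 147 and 137 CPM in IR_DMSO (-4.24 ± 0.71, adjusted p = 0.00081). The 3 IR_DMSO values were close together, whereas those with the compound were spread, with replicate 2 the highest. IFIT2 averaged 4.06 ± 0.819 CPM with the compound and 50.9 ± 4.54 CPM with DMSO (-3.68 ± 0.22). The oligoadenylate synthetases, which start RNA decay in infected cells, fell together: OAS1 changed by -5.34 ± 0.70, OAS2 by -5.21 ± 0.63 and OAS3 by -3.58 ± 0.21. CXCL10, an interferon-driven chemokine for T cells, had 1.61, 1.76 and 1.42 CPM in IR_HDM201 and 39.96, 54.7 and 43.8 CPM in IR_DMSO (-4.85 ± 0.18, adjusted p = 9.2e-15), with no overlap.

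Promoters of CXCL10 and OAS3 are printed as members of this list with small p and with the core GAAANNGAA of the interferon-stimulated response element, in capitals. They lie at chr4:76023448-76023747 (minus strand) and chr12:112938224-112938523 (plus strand), RefSeq, GRCh38.p14. The core began 221 bases before the start in CXCL10, and 143 and 12 bases before it in OAS3. It occurred on either strand in 31 of 43 promoters of interferon-stimulated genes (72.1%), in 12.4% of the 619 promoters of genes that fell at least 2-fold, in 5.66% of the 106 promoters of genes that rose at least 2-fold, and in 6.58% of all promoters.
CXCL10: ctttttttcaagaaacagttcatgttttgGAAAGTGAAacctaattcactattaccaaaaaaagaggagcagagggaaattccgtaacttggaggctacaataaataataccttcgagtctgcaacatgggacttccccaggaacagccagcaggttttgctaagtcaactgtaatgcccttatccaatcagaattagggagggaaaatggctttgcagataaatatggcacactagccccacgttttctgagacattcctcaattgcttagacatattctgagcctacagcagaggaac
OAS3: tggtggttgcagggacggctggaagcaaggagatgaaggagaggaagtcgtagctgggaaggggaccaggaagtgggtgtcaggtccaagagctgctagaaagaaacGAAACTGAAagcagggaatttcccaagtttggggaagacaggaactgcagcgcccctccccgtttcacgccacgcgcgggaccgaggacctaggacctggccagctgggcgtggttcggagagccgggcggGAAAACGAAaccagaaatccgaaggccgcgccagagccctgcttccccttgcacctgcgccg

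The genes that carry the interferon signal were affected in part. Of 17 receptors, kinases and factors, 8 fell and the rest were not called (median -0.26). STAT2 changed by -0.91 ± 0.10, IRF1 by -1.36 ± 0.13, IRF7 by -1.94 ± 0.19, and SOCS3, a feedback inhibitor of cytokine receptors, by -1.24 ± 0.12. Presentation of peptides on MHC class I, which interferon raises, fell in 14 of 17 genes (median -0.60). HLA-B averaged 198 ± 23.9 CPM in IR_HDM201 and 401 ± 69.7 CPM in IR_DMSO (-1.02 ± 0.12). It is polymorphic and shares reads with its paralogs, so its level is uncertain. The peptide transporter TAP1 changed by -0.89 ± 0.11 and the immunoproteasome subunit PSMB9, which shares exonic bases with PSMB8, by -2.74 ± 0.29. Among 13 genes of cytosolic DNA sensing, 4 fell (30.8%, beside 11.3% of all genes), including SAMHD1, which depletes nucleotides (-0.97 ± 0.11). CGAS, the sensor of cytosolic DNA, was not called (4.14 ± 1.28 CPM in IR_HDM201 and 5.45 ± 0.257 CPM in IR_DMSO, adjusted p = 0.10), but its fall was called without IR_HDM201 replicate 3 (-0.59, adjusted p = 0.021) and with library totals.

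**Figure D2:**
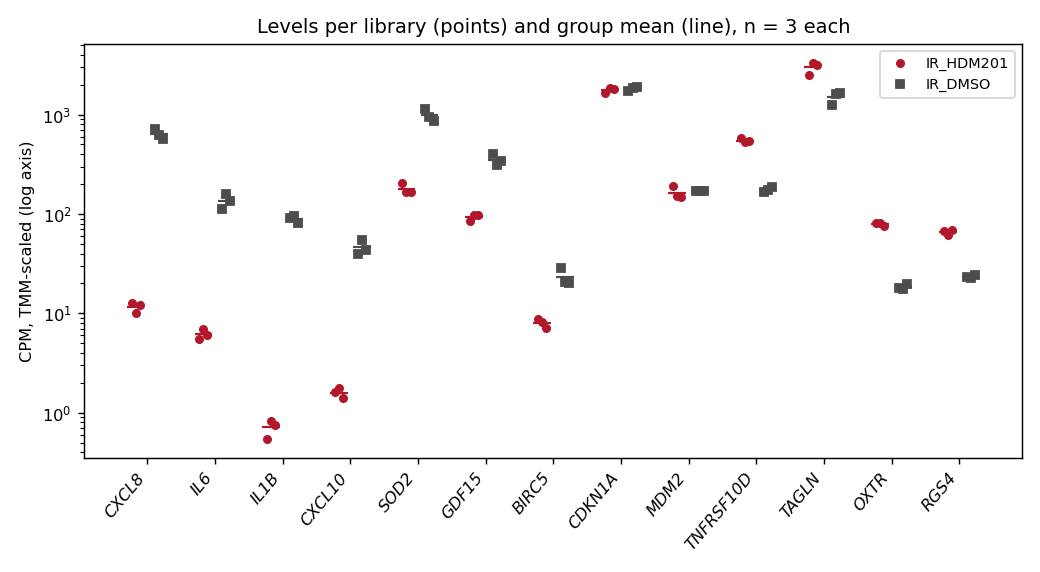
Level of 13 genes in each library (points, TMM-scaled CPM on a log axis) with the mean of each group (line), IR_HDM201 in red and IR_DMSO in grey, 3 libraries each. CXCL8, IL6, IL1B, CXCL10, SOD2, GDF15 and BIRC5 lie lower with the compound, TNFRSF10D, TAGLN, OXTR and RGS4 lie higher, and the groups overlap for CDKN1A and MDM2.

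Genes that p53 is known to activate did not move as a group. Of 69 p53 targets tested, 7 rose and 17 fell (10.1% and 24.6%, beside 9.96% and 11.3% of all genes), with a median of -0.11, and with library totals 6 rose and 27 fell. CDKN1A (chr6:36676460-36687337, plus strand), which shares exonic bases with DINOL, had 1656, 1839.9 and 1795 CPM in IR_HDM201 and 1709, 1868 and 1878 CPM in IR_DMSO (-0.04 ± 0.11, adjusted p = 0.82). The groups overlapped, and without IR_HDM201 replicate 1 the difference had the other sign. MDM2, itself a p53 target that closes the feedback loop, had 189.8, 150.4 and 147 CPM against 169, 169 and 172 CPM in IR_DMSO (-0.07 ± 0.17, adjusted p = 0.84). Of 18 regulators of p53, 7 fell and 2 rose (38.9% and 11.1%, the rises near the share of all genes). MDM4, a partner of MDM2, changed by -0.62 ± 0.12, the checkpoint kinase CHEK2 by -1.12 ± 0.13, and TP53BP1, which encodes 53BP1, by -0.54 ± 0.10.

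Targets for arrest and feedback were mixed. CCNG1, an atypical cyclin, rose with the compound, with 327, 276 and 279 CPM in IR_HDM201 against 179, 197 and 189 CPM in IR_DMSO (0.64 ± 0.10, adjusted p = 5.8e-05), a call that FPKM values did not give. PPM1D, the phosphatase that ends the p53 response, fell (-0.45 ± 0.11), and so did the kinase PLK2 at 78.6, 71.7 and 71.0 CPM against 161, 234 and 209 CPM in IR_DMSO (-1.45 ± 0.11). Of the nucleotide excision repair genes, XPC averaged 39.9 ± 1.81 CPM with the compound and 54.3 ± 2.85 CPM with DMSO (-0.45 ± 0.09), and DDB2 was not called (-0.30 ± 0.13, adjusted p = 0.11), although its fall was called without IR_DMSO replicate 1 (-0.43, adjusted p = 0.022) and with FPKM values. BAX, which opens mitochondria in apoptosis, was not called (0.02 ± 0.12), and BBC3, which encodes the killer protein PUMA, changed by -0.54 ± 0.15. FDXR, a mitochondrial reductase, changed by -0.63 ± 0.17. The call of BBC3 was lost without IR_DMSO replicate 1 or IR_HDM201 replicate 1 or 2 (adjusted p up to 0.0679), and that of FDXR without replicate 1 of either group (adjusted p up to 0.112).

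The p53 targets with larger changes moved in opposite directions. At least 2-fold, 2 of the 69 targets rose, TNFRSF10D the most, and 5 fell. TNFRSF10D, a decoy receptor that binds the death ligand TRAIL without killing, had 577, 528 and 536 CPM in IR_HDM201 and 165, 175 and 188 CPM in IR_DMSO (1.63 ± 0.11, adjusted p = 1.1e-10). GDF15 (chr19:18374731-18389176, plus strand), a stress cytokine, had 84.9, 97.7 and 98.3 CPM in IR_HDM201 and 406, 314 and 338 CPM in IR_DMSO (-1.91 ± 0.13, adjusted p = 2.6e-10). SAT1, which acetylates polyamines, averaged 61.2 ± 8.80 CPM and 169 ± 41.1 CPM in the same groups (-1.46 ± 0.14), and PLAU, the urokinase plasminogen activator, 884 ± 40.1 CPM and 1786 ± 113 CPM (-1.01 ± 0.10). None of these 4 genes had overlapping groups.

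In proliferating cells the same compound changed far fewer genes, 99 higher (0.545%) and 28 lower (0.154%). These counts rest on Prolif_HDM201 replicate 3, a library that stood apart from its group, since without it 867 genes rose and 805 fell, 1672 in all. Here 13 of 69 p53 targets rose and the rest were not called (median 0.36). CDKN1A averaged 627 CPM in Prolif_HDM201 and 231 CPM in Prolif_DMSO (1.44, adjusted p = 8.2e-08), and GDF15 26.9 CPM and 11.8 CPM (1.196, adjusted p = 1.8e-05). The difference between the states was itself tested for every gene, with no length of treatment given for the proliferating cells. It was more positive in irradiated cells for 539 genes (2.97%) and more negative for 1029 (5.67%), 1568 in all and 2943 without Prolif_HDM201 replicate 3. Of the 69 p53 targets, 29 had a more negative effect in irradiated cells and 2 a more positive one. The difference was -1.48 for CDKN1A (adjusted p = 4.6e-07), -3.11 for GDF15 (adjusted p = 9.1e-11) and -0.85 for DDB2 (adjusted p = 0.0041), and it was not called for MDM2 (-0.55, adjusted p = 0.19) or CCNG1 (0.24, adjusted p = 0.34). TNFRSF10D rose in either state, by 1.63 in irradiated and 0.71 in proliferating cells (difference 0.92, adjusted p = 0.00014), although its rise in proliferating cells was not called in a fit of only the libraries compared (adjusted p = 0.0636). NF-kB cytokines had a median of 0.09 in proliferating cells, and 19 of 33 differed between states toward a lower effect in irradiated cells, CXCL8 by -5.24 and IL6 by -4.27. The lower level of many of these genes in proliferating cells limits what a fall could show there: CXCL8 averaged 5.84 CPM in Prolif_HDM201 and 8.34 CPM in Prolif_DMSO.

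**Figure D3:**
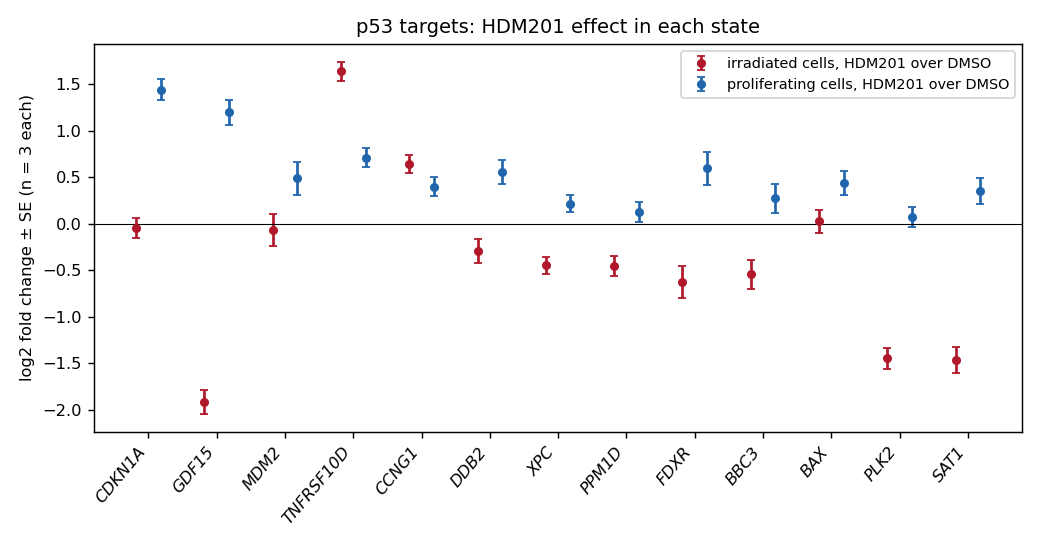
Log2 fold change of HDM201 over DMSO ± SE for 13 p53 targets, in irradiated cells (red, left of each pair) and in proliferating cells (blue), 3 libraries a group. CDKN1A stands at -0.04 in irradiated and 1.44 in proliferating cells, and GDF15 at -1.91 and 1.196, whereas TNFRSF10D and CCNG1 lie above 0 in either state.

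Genes of cell division, already low after irradiation, fell further. Of 59 mitosis genes, 49 fell and 1 rose (median -0.83), and the summed level was 601, 523 and 482 CPM in IR_HDM201 against 848, 873 and 850 CPM in IR_DMSO. BIRC5 (chr17:78214186-78225636, plus strand), the chromosomal passenger survivin, had 8.83, 8.26 and 7.20 CPM with the compound and 28.8, 20.7 and 20.4 CPM with DMSO (-1.52 ± 0.13, adjusted p = 7.8e-09). KIF20A, a kinesin of cytokinesis, averaged 3.85 ± 1.21 CPM and 15.6 ± 2.72 CPM in the same groups (-1.95 ± 0.17). CCNB1, the mitotic cyclin, averaged 16.7 ± 1.23 CPM with HDM201 and 29.9 ± 4.10 CPM with DMSO (-0.83 ± 0.11), far under the 255 CPM of Prolif_DMSO. CDK1 changed by -0.77 ± 0.18 and the checkpoint kinase BUB1 by -1.09 ± 0.14. BUB3, the member that rose (0.30 ± 0.09, adjusted p = 0.018), acts at the spindle checkpoint and lost its call in 8 of the 16 other settings, among them those without IR_DMSO replicate 2 or 3 or IR_HDM201 replicate 2 (adjusted p up to 0.275). MKI67, the marker of cycling cells, had 18.5, 10.1 and 10.3 CPM in IR_HDM201 and 17.96, 35.7 and 33.0 CPM in IR_DMSO (-1.12 ± 0.37, adjusted p = 0.042). Its groups overlapped through replicate 1 of either group, and the call was lost in 5 settings, including those without replicate 2 or replicate 3 of either group, with an adjusted p of up to 0.145.

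Mitosis promoters are represented by KIF4A, a chromosome-bound kinesin (-1.32 ± 0.15), and CDC20, which activates the anaphase ligase (-1.13 ± 0.15), chosen as members of small p that hold TTTGAA, the letters of the cell cycle homology region, in capitals (TTCAAA is its reverse complement). They lie at chrX:70289854-70290153 (plus strand) and chr1:43358731-43359030 (plus strand), RefSeq, GRCh38.p14. The match began 34 bases before the start in KIF4A, and 178 and 65 bases before it in CDC20. These 6 letters were in 35 of 51 mitosis promoters on either strand (68.6%) and in 10.2% of all promoters (1248 of 12290). They were in 14.7% of 619 promoters of genes that fell at least 2-fold and in 11.3% of 106 that rose at least 2-fold.
KIF4A: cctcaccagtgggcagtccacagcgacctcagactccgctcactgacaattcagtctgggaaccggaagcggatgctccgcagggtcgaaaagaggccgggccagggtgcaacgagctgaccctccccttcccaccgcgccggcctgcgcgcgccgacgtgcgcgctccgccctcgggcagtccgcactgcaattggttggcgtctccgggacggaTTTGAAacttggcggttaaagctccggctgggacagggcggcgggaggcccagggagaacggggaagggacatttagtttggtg
CDC20: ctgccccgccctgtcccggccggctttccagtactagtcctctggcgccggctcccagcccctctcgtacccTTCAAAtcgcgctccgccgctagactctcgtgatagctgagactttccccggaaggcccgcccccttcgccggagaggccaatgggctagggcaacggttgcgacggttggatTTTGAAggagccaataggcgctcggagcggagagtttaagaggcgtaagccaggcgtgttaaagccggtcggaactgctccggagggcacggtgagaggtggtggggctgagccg

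DNA replication was touched less than mitosis. Of 48 replication and E2F genes, 10 fell and 1 rose (median -0.13), a share of 20.8% beside 11.3% of all genes, and 22 fell with library totals. TK1, a kinase of thymidine salvage, averaged 13.3 ± 1.84 CPM in IR_HDM201 and 25.7 ± 2.34 CPM in IR_DMSO (-0.95 ± 0.13), and RRM2, a subunit of ribonucleotide reductase, changed by -0.96 ± 0.13. MCM7 of the replicative helicase changed by -0.66 ± 0.11, but MCM2 of the same complex was not called (-0.12 ± 0.12, adjusted p = 0.54). The member that rose, the cyclin CCNE2 (0.57 ± 0.18), had overlapping groups and lost its call in 7 settings, among them those without IR_DMSO replicate 1 or IR_HDM201 replicate 1 or 2 (adjusted p up to 0.133). Of 36 genes of homologous recombination and the Fanconi anemia pathway, 5 fell (13.9%, near the 11.3% of all genes), and 10 fell with library totals. FANCD2 was among them (-0.68 ± 0.13, not called with FPKM values). Of 28 genes of end joining and break signaling, 4 fell and 2 rose (14.3% and 7.14%, near the shares of all genes), and 8 fell with library totals. Those that rose were XRCC4, the scaffold of the joining ligase, at 24.6, 26.9 and 25.1 CPM with HDM201 against 11.8, 10.3 and 10.8 CPM with DMSO (1.22 ± 0.15, adjusted p = 2.9e-06), and SHLD2 of the shieldin complex (0.71 ± 0.14), which shares exonic bases with GLUD1. The XRCC4 groups did not overlap, and its effect differed from that in proliferating cells (difference 1.25, adjusted p = 0.00038).

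Of 7 cyclin-dependent kinase inhibitors, CDKN1A included, 5 fell (71.4%, beside 11.3% of all genes) and the rest were not called. CDKN2A, which encodes p16 and ARF, had 8.68, 6.94 and 9.33 CPM in IR_HDM201 against 16.1, 12.7 and 13.4 CPM in IR_DMSO (-0.76 ± 0.15). Its neighbor CDKN2B averaged 8.14 ± 2.19 CPM and 17.4 ± 1.03 CPM in these groups (-1.07 ± 0.15), CDKN1C changed by -1.50 ± 0.21 and CDKN2C by -0.999 ± 0.18. CDKN2A fell in proliferating cells too (-0.65, adjusted p = 0.035), a call lost in 5 of 14 other settings, among them those without Prolif_DMSO replicate 1, 2 or 3 or Prolif_HDM201 replicate 2 (adjusted p up to 0.196). LMNB1, the lamina protein whose loss marks senescence, averaged 4.59 ± 0.610 CPM with HDM201 and 6.83 ± 1.54 CPM with DMSO (-0.55 ± 0.15, adjusted p = 0.011), a call lost in 6 of 16 other settings, among them those without IR_HDM201 replicate 2 or IR_DMSO replicate 1 (at most an adjusted p of 0.0982). High mobility group genes split: HMGA2 had 912, 782 and 744 CPM in IR_HDM201 against 272, 429.5 and 437 CPM in IR_DMSO (1.10 ± 0.14) and HMGA1 rose by 0.87 ± 0.15, whereas HMGB2 fell by 1.02 ± 0.12 on the log2 scale.

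Where 1 of the groups averaged 1 CPM or more and the libraries did not overlap, the genes that rose most had varied functions. OXTR (chr3:8750381-8769628, minus strand), the receptor of oxytocin, had 81.1, 80.6 and 75.8 CPM in IR_HDM201 and 18.2, 17.7 and 19.6 CPM in IR_DMSO (2.10 ± 0.14, adjusted p = 2.6e-10). MAP3K7CL (chr21:29077221-29175889, plus strand) had 109, 102 and 105 CPM against 28.4, 30.5 and 32.4 CPM in IR_DMSO (1.79 ± 0.10, adjusted p = 6.8e-12). RGS4 (chr1:163068775-163076802, plus strand), which damps G protein signaling, had 67.0, 61.7 and 68.8 CPM against 23.4, 22.6 and 24.2 CPM in IR_DMSO (1.49 ± 0.09, adjusted p = 3e-11). The groups were apart and the replicates close for all 3. NRXN3, a synaptic adhesion protein, averaged 21.1 ± 1.48 CPM with HDM201 and 5.81 ± 1.28 CPM with DMSO (1.86 ± 0.14), and KCNQ5, a potassium channel, 11.2 ± 0.764 CPM and 2.55 ± 0.499 CPM (2.14 ± 0.23). OPCML, a cell adhesion protein on a lipid anchor, rose more than these, at 2.55 ± 0.524 CPM and 0.428 ± 0.243 CPM (2.57 ± 0.31). ANO1, a chloride channel, changed by 1.53 ± 0.12, the membrane protease CORIN by 1.62 ± 0.11, and SEMA7A, a semaphorin, by 1.55 ± 0.12. MEST, an imprinted gene, changed by 1.52 ± 0.11, and the heat shock family member HSPB7 by 1.78 ± 0.21. RGMB, a BMP coreceptor (chr5:98768650-98798643, plus strand), rose by 1.38 ± 0.10 together with RGMB-AS1 (chr5:98769618-98773469, minus strand, 1.55 ± 0.14). This pair overlaps on opposite strands and the use of strand in counting was not stated, so their reads cannot be told apart.

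The contractile apparatus, actin-binding and smooth muscle genes that serum response factor drives in myofibroblasts, had more members that rose than fell. Of 30 genes, 13 rose, 1 fell and 16 were not called (43.3% higher and 3.33% lower, median 0.28), and 12 rose and 2 fell with library totals. The sum was 24617, 26231 and 26698 CPM in IR_HDM201 against 17995, 18977 and 19545 CPM in IR_DMSO. TAGLN (chr11:117199370-117207464, plus strand), an actin cross-linker of smooth muscle that shares exonic bases with PCSK7, had 2516, 3318 and 3184 CPM with HDM201 and 1240.3, 1603 and 1645 CPM with DMSO (1.01 ± 0.12, adjusted p = 1.9e-06). ACTA2, smooth muscle actin, which shares exonic bases with FAS, had 692, 866 and 816 CPM against 342, 437 and 440.4 CPM in IR_DMSO (0.96 ± 0.13). Neither gene had overlapping groups, and replicate 1 was lowest in either group for both. ACTG2 changed by 0.97 ± 0.15, and the calponins CNN1 and CNN3 by 1.02 ± 0.15 and 0.78 ± 0.08. MYOCD, the coactivator of serum response factor in muscle, was the member that fell, averaging 10.3 ± 2.33 CPM with HDM201 and 39.2 ± 6.97 CPM with DMSO (-1.91 ± 0.21). In proliferating cells the list had a median of -0.16 with 3 members lower, and the difference between states was positive for 14 and negative for 1. For MYH11, smooth muscle myosin, the effect was 0.63 in irradiated and -1.36 in proliferating cells (difference 1.99, adjusted p = 6e-07), although its rise in irradiated cells was not called with FPKM values.

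The ACTG2 promoter, at chr2:73892758-73893057 (plus strand, RefSeq, GRCh38.p14), is shown as the contractile member of smallest p that holds the CArG box of serum response factor, in capitals. Matches began 110 and 73 bases before the start. The box was found in 7 of 25 contractile promoters (28.0%), in 1.13% of all promoters, and in 0.943% of promoters of genes that rose at least 2-fold. In those promoters of rising genes, the AP-1 letters TGANTCA were in 12.3% (13 of 106) and a p53 element searched as a single copy was in 10.4% (11 of 106), against 5.08% and 5.37% of all promoters. Over all genes that rose these shares were 5.22% and 5.58%, and the AP-1 letters were also in 52 of 619 promoters of genes that fell at least 2-fold.
ACTG2: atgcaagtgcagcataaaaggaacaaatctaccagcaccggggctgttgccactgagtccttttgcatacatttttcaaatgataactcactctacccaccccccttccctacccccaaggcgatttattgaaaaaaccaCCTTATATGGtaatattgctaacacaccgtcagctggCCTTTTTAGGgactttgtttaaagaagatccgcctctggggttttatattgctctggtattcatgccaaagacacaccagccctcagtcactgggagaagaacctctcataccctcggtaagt

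**Figure D4:**
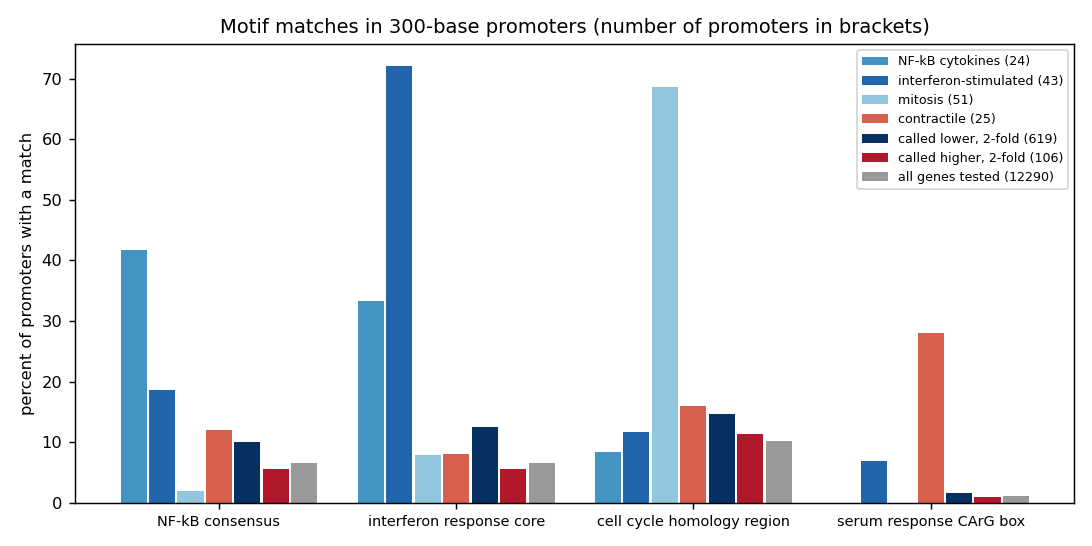
Percent of promoters, 300 bases each, that hold 4 motifs on either strand, for 4 gene lists, for genes that fell or rose at least 2-fold, and for all genes tested (grey, 12290 promoters). The interferon response core is in 72.1% of interferon-stimulated promoters and TTTGAA in 68.6% of mitosis promoters, against 6.58% and 10.2% of all promoters. List shares count every tested member, called or not.

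Matrix genes changed by class. Of 30 collagens, 10 fell and 1 rose (33.3% and 3.33%, median -0.31). COL7A1, the anchoring fibril collagen, averaged 40.4 ± 8.65 CPM in IR_HDM201 and 131 ± 38.6 CPM in IR_DMSO (-1.70 ± 0.18), COL16A1 changed by -1.13 ± 0.12 and COL4A6 by -1.21 ± 0.13. COL1A1, the main fibrillar collagen, had 7601, 7127 and 7425 CPM with the compound and 9178, 5241 and 5544 CPM with DMSO (0.15 ± 0.17, adjusted p = 0.58). IR_DMSO replicate 1 alone made these groups overlap, the sign turned with library totals, and without that library the rise was called (0.46, adjusted p = 0.026). COL3A1 fell by 0.55 ± 0.14 on the log2 scale, a call that was lost without that library and when only the 6 libraries compared were fitted (adjusted p up to 0.112). COL13A1, the collagen that rose (0.38 ± 0.12), lost its call in 8 settings, among them those without replicate 2 or replicate 3 of either group (adjusted p up to 0.209). Of 21 genes of elastic fibers and crosslinking, 3 rose and 2 fell (14.3% and 9.52%, beside 9.96% and 11.3% of all genes), and 2 rose and 6 fell with library totals. Those that rose included LOX, lysyl oxidase, which had 2944, 2261 and 2185 CPM against 994, 1287 and 1336 CPM in IR_DMSO (1.03 ± 0.13), and LOXL1 rose by 0.87 ± 0.12. Of 29 matricellular proteins and proteoglycans, 5 rose and 11 fell (17.2% and 37.9%). DCN (decorin) rose by 0.88 ± 0.10, SPARC by 0.65 ± 0.10 and THBS1 (thrombospondin) by 0.52 ± 0.10, while TNC (tenascin C) averaged 273 ± 22.5 CPM with HDM201 and 654 ± 82.1 CPM with DMSO (-1.26 ± 0.12) and CCN4 changed by -1.16 ± 0.10. CCDC80, a matrix protein, averaged 1159 ± 36.6 CPM and 557 ± 35.0 CPM (1.06 ± 0.09). Integrins ITGA3 and ITGA6, laminin receptors, rose by 0.84 ± 0.11 and 0.83 ± 0.12. Of 14 YAP and TEAD targets 4 rose (28.6%, beside 9.96% of all genes), among them CCN2 (0.43 ± 0.11) and ANKRD1 (0.69 ± 0.13).

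Secreted proteases of the SASP and their inhibitors had 16 of 33 members lower, 5 higher and 12 not called (median -0.39). The lower and higher shares were 48.5% and 15.15%, beside 11.3% and 9.96% of all genes. Their summed level was not lower with the compound, at 12982, 13720 and 13087 CPM in IR_HDM201 against 12937, 12851 and 12940.5 CPM in IR_DMSO. MMP1, interstitial collagenase, had 235, 289 and 278 CPM in IR_HDM201 and 578, 579 and 567 CPM in IR_DMSO (-1.10 ± 0.09), and MMP3, stromelysin, had 6.55, 8.96 and 6.66 CPM against 71.1, 41.3 and 40.5 CPM in IR_DMSO (-2.80 ± 0.19). Cathepsin genes CTSS and CTSK changed by -2.94 ± 0.26 and -1.38 ± 0.11, and ADAM19, a membrane protease, rose by 0.97 ± 0.11. Of 8 plasminogen activator and serpin genes, 5 fell and 1 rose (62.5% and 12.5%), the latter at least 2-fold. Of 41 growth factors and binding proteins, 18 fell and 8 rose (43.9% and 19.5%). The EGF-family ligand AREG averaged 3.20 ± 0.224 CPM with HDM201 and 18.1 ± 2.98 CPM with DMSO (-2.49 ± 0.19), and the stanniocalcins STC1 and STC2 changed by -1.201 ± 0.13 and -1.12 ± 0.10. In the other direction, IGFBP3, which binds insulin-like growth factors, had 2267, 2479 and 2223 CPM against 1347, 1491 and 1483 CPM in IR_DMSO (0.69 ± 0.10), and FGF1 and FGF5 rose by 1.32 ± 0.12 and 1.31 ± 0.18. Complement followed the cytokines in part, with 6 of 16 lower and 1 higher (37.5% and 6.25%). C3, the central component, had 22.3, 21.7 and 18.3 CPM with the compound and 189, 289 and 271 CPM with DMSO (-3.58 ± 0.17, adjusted p = 5.7e-13), whereas CD59, which protects cells from complement, rose by 0.40 ± 0.08. In the prostaglandin pathway 6 of 16 fell and 1 rose (37.5% and 6.25%). The falls were led by the synthases PTGES, at 1.99, 1.76 and 1.87 CPM against 32.5, 25.0 and 23.9 CPM in IR_DMSO (-3.84 ± 0.19), and PTGS2, which encodes COX-2, at 7.16, 7.34 and 6.53 CPM against 63.2, 81.9 and 66.8 CPM (-3.33 ± 0.19). The receptor PTGER2 rose by 0.39 ± 0.09.

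Developmental signaling was lower in most called genes. Of 34 TGF-beta and BMP genes, 21 fell and 1 rose (61.8% and 2.94%, beside 11.3% and 9.96% of all genes, median -0.56). The ligand BMP2 had 18.8, 13.4 and 14.9 CPM in IR_HDM201 and 58.6, 61.3 and 60.9 CPM in IR_DMSO (-1.93 ± 0.13), BMP4 changed by -1.28 ± 0.12 and TGFB2 by -0.85 ± 0.16. The BMP targets ID1 and ID3 changed by -1.02 ± 0.12 and -1.24 ± 0.14. Of 20 WNT genes, 9 fell and 1 rose (45% and 5%). AXIN2, a feedback target of the pathway, averaged 0.322 ± 0.0663 CPM with HDM201 and 1.35 ± 0.252 CPM with DMSO (-2.07 ± 0.34), and the ligand WNT5B was the one that rose, with 213, 244 and 249 CPM against 94.0, 77.8 and 83.8 CPM in IR_DMSO (1.46 ± 0.10, adjusted p = 2.9e-10). Of 11 Notch genes, 5 fell and 1 rose (45.5% and 9.09%, the latter near the share of all genes). The target HES1 changed by -2.40 ± 0.23 and the ligands DLL4 and JAG1 by -1.56 ± 0.15 and -0.72 ± 0.11, whereas the receptor NOTCH3 rose by 0.70 ± 0.12.

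Stress-response genes split by type. Of 29 immediate early and heat shock genes, kept also as a sign of how cells were handled, 14 fell and 7 rose (median -0.39). These were 48.3% and 24.1%, beside 11.3% and 9.96% of all genes. The immediate early genes fell in 12 of 19 cases, with FOS at 0.243, 0.527 and 0.444 CPM in IR_HDM201 against 3.08, 3.13 and 3.82 CPM in IR_DMSO (-3.18 ± 0.31), JUNB changed by -1.14 ± 0.12, IER3 by -2.33 ± 0.13 and the nuclear receptor NR4A2 by -2.24 ± 0.15. JUN was not called (-0.16 ± 0.10), and KLF2, a factor known from endothelial cells, rose by 1.21 ± 0.18. Of 10 heat shock genes 5 rose, HSPB1 by 0.68 ± 0.14, and 2 fell. ATF3, a stress-induced factor, had 11.1, 14.9 and 13.1 CPM with HDM201 and 52.3, 58.3 and 56.1 CPM with DMSO (-2.10 ± 0.14). In the integrated stress response 4 of 32 fell and 3 rose, close to the shares over all genes, with DDIT3, which encodes CHOP, at -0.89 ± 0.13 and the serine synthesis gene PSAT1 at 0.51 ± 0.11. NRF2 targets fell in 7 of 21 cases and rose in 2 (33.3% and 9.52%, the rises near the share of all genes). The aldose reductase AKR1B1 had 142, 180.5 and 181 CPM in IR_HDM201 and 802, 724 and 681 CPM in IR_DMSO (-2.13 ± 0.11, adjusted p = 2.7e-12), NQO1 changed by -1.23 ± 0.11 and HMOX1, heme oxygenase, by -1.202 ± 0.15. NAMPT, the rate-limiting enzyme of NAD salvage, averaged 36.9 ± 5.37 CPM with HDM201 and 248 ± 18.1 CPM with DMSO (-2.74 ± 0.14). Metallothioneins fell in 4 of 7 cases, MT1G by 3.49 ± 0.41 and MT1X by 1.10 ± 0.18 on the log2 scale. These small genes are near-copies of each other, so the split of their reads is uncertain. TFPI2, a serine protease inhibitor, averaged 82.8 ± 9.57 CPM in IR_HDM201 and 390.4 ± 23.2 CPM in IR_DMSO (-2.24 ± 0.10), against a rise of 0.62 in proliferating cells (difference -2.86, adjusted p = 2.2e-12). VWA5A showed the same contrast, with -2.33 ± 0.12 in irradiated and 0.79 in proliferating cells (difference -3.11), where its rise was not called in a fit of only the libraries compared (adjusted p = 0.1555).

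Metabolic lists had mixed calls, given here beside the 9.96% higher and 11.3% lower of all genes tested. Among 34 nuclear oxidative phosphorylation genes, 7 rose (20.6%) with small changes (median 0.15). However, 1 rose with library totals, where the median was -0.002, and 3 rose without IR_DMSO replicate 1. Cytosolic ribosomal protein genes rose in 7 of 35 cases (median 0.29), and 2 rose with library totals. The 13 mitochondrially encoded genes had a median of 0.51 with edgeR, and 0 were called, 0 at an unadjusted p under 0.05 and 0 by DESeq2. Without IR_DMSO replicate 1, the library with little mitochondrial RNA, their median was -0.0002. Of 31 glycolysis and hypoxia genes, 6 rose and 9 fell (19.4% and 29.0%, median 0.03), in opposite directions within the hypoxia response. PDK1, which blocks pyruvate entry to mitochondria, rose by 0.78 ± 0.11 and CA9, a carbonic anhydrase, fell by 2.15 ± 0.29 on the log2 scale. Cholesterol synthesis had 2 of 25 higher and 2 lower (8% each, under the shares of all genes). The cholesterol exporters ABCA1 and ABCG1 changed by -0.98 ± 0.21 and -1.64 ± 0.21, and PPARG, the adipogenic nuclear receptor, rose by 0.83 ± 0.14. Lysosome and autophagy genes fell in 7 of 33 cases (21.2%), NPC1 by 1.42 ± 0.12 and SQSTM1, the autophagy receptor p62, by 1.04 ± 0.13 on the log2 scale. HSD11B1, which activates cortisol, averaged 0.705 ± 0.0433 CPM with HDM201 and 6.42 ± 0.938 CPM with DMSO (-3.17 ± 0.31), and G0S2, an inhibitor of lipolysis, 0.351 ± 0.0804 CPM and 11.6 ± 3.14 CPM (-5.14 ± 0.30).

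Survival genes and immune ligands also changed. Of 15 BCL2-family genes, 6 fell and 2 rose (40% and 13.3%, beside 11.3% and 9.96% of all genes). BCL2A1, an NF-kB-induced survival gene, gave 3 counts over the IR_HDM201 libraries and 358 over the IR_DMSO libraries, a ratio of IR_DMSO to IR_HDM201 of 106 (95% counting interval 36.1 to 519). BCL2L1, which encodes BCL-xL, rose in irradiated cells (0.45 ± 0.11) and in proliferating cells (0.52, adjusted p = 0.023), where the call was lost in 6 of 14 other settings, among them those without Prolif_DMSO replicate 1, 2 or 3 or Prolif_HDM201 replicate 1 or 2 (adjusted p up to 0.296). Among 15 ligands of natural killer cells and checkpoints, 5 rose and 1 fell (33.3% and 6.67%), with 3 higher and 4 lower under library totals. PDCD1LG2, the checkpoint ligand PD-L2, had 91.1, 97.9 and 95.5 CPM in IR_HDM201 and 31.9, 48.9 and 52.6 CPM in IR_DMSO (1.09 ± 0.14), and TNFSF4, the ligand of OX40, had 185, 181 and 166 CPM against 83.8, 90.5 and 90.3 CPM in IR_DMSO (1.01 ± 0.09). The groups did not overlap for either ligand. CD55, which speeds decay of complement convertases, was the member that fell (-0.85 ± 0.11).

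**Figure D5:**
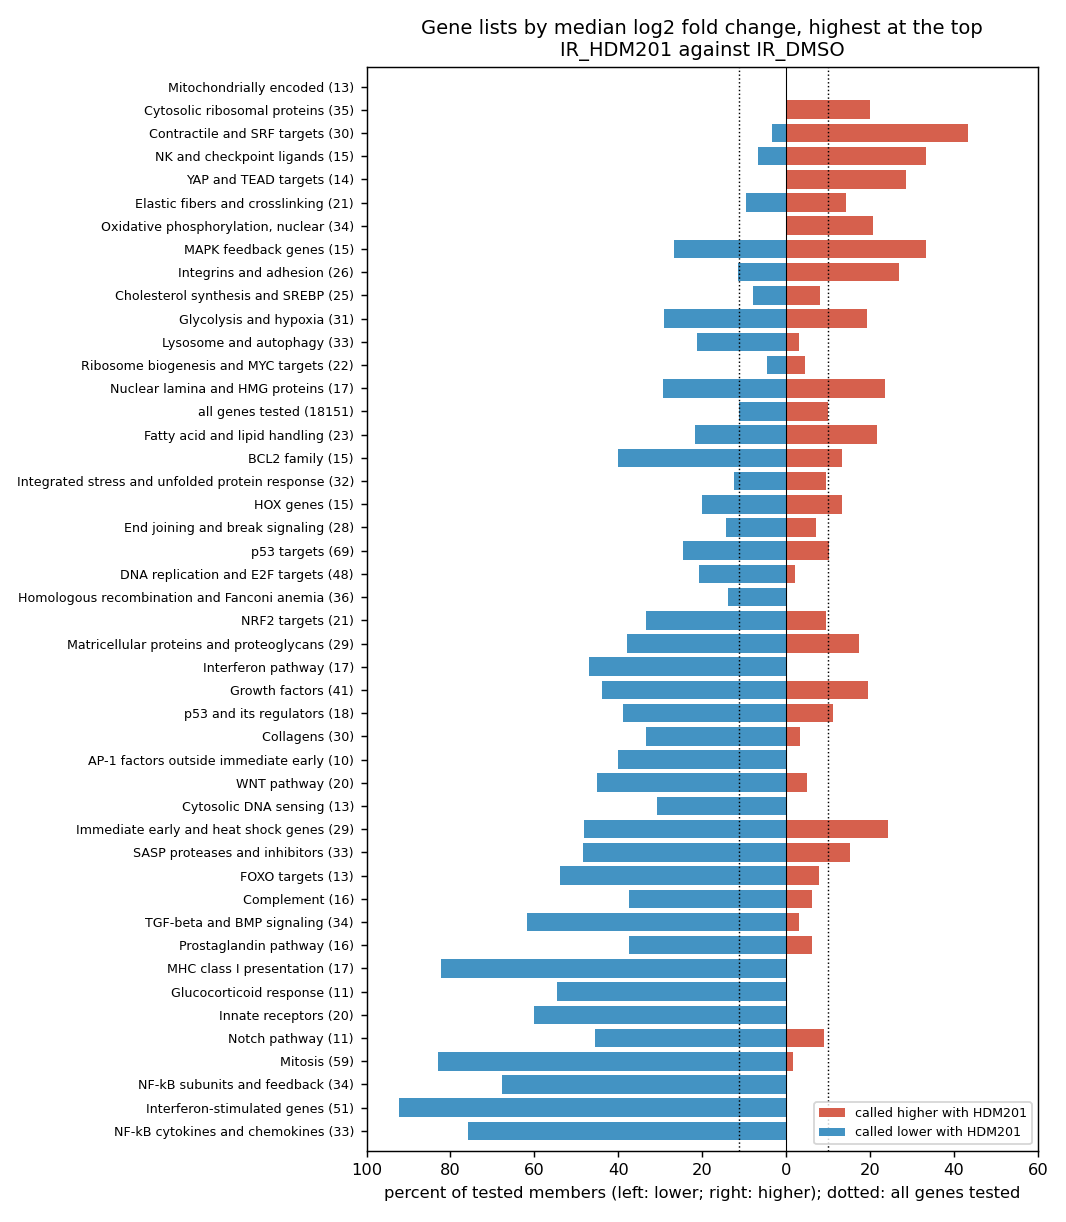
Percent of tested members called lower (blue, left) and higher (red, right) with HDM201 for each gene list with at least 10 tested members, ordered by median log2 fold change, with the number tested in brackets. Interferon-stimulated genes reach 92.2% lower, mitosis genes 83.1% and MHC class I genes 82.4%, and contractile genes reach 43.3% higher, while dotted lines mark the 11.3% lower and 9.96% higher of all genes tested.

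Irradiation in DMSO and treatment with RG7388 are given as values beside HDM201. All 3 contrasts use the IR_DMSO libraries, so no overlap or correlation between them was computed, and the compounds were given at different doses. The list median of NF-kB cytokines was -2.78 with HDM201, -2.77 with RG7388 and 3.42 with irradiation (IR_DMSO over Prolif_DMSO). For interferon-stimulated genes these medians were -2.41, -2.81 and 2.45, for contractile genes 0.28, 0.42 and -0.98, and for p53 targets -0.11, -0.09 and 0.97. Mitosis genes had medians of -0.83 with HDM201, -1.62 with RG7388 and -3.32 with irradiation, so that they were low after irradiation and lower with either compound. Among single genes, CXCL8 changed by -5.76, -6.15 and 6.24 in these contrasts, OXTR by 2.10, 2.02 and -0.44, SEMA7A by 1.55, 1.67 and -2.53, and CDKN1A by -0.04, 0.21 and 2.98.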

How the data were processed

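Gene counts of 18 poly(A) RNA libraries were analysed as the authors deposited them: raw counts per gene, with no normalization, on hg38. The submitters' processing notes name STAR, HTSeq and Cufflinks, with versions and the use of strand not given in the sources used here. The deposited FPKM values, which the authors scaled by gene length and depth, served only as an alternative.

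The members of this report and its gene lists were chosen with earlier results of these data known. edgeR 4.0.16 (R 4.3.3) was fitted to all 18 libraries in 6 groups of 3, with TMM factors, edgeR's filter on low counts and the quasi-likelihood test. It tested 18151 of 60668 genes with 12 residual degrees of freedom, and p-values were adjusted by Benjamini-Hochberg over all of them. The effect in proliferating cells and the difference between states came from the same fit. Alternatives were DESeq2 1.42.0, its size factors, library totals, other filters, limma 3.58.1 on log2(FPKM + 0.1) and log2(FPKM + 1), fewer libraries, each replicate left out, and a replicate block. The test was also run on simulated counts. The simulation gave every gene the same dispersion, had no library that stood apart and changed only genes of higher counts. It therefore cannot vouch for calls at low counts or for the effect of libraries that stood apart.

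Named genes were a fixed panel, the genes of largest change in each direction, and the called genes of smallest p in each direction. Only those of largest change had to have a mean of at least 1 CPM in 1 group and no overlap between libraries. Further named genes were the list members of smallest p, the members that went against their list, the leading members of each list, and the differences between states of smallest p. The genes given in each paragraph were picked from these after their values were seen, and some are not reported here. Gene positions are GENCODE release 44 coordinates on hg38, and 99.5% of IDs matched. Of the 183 named genes, 84 share exonic bases with another gene. Only some of these are flagged in the text, and others include MDM2 with CPM and KRT8 with KRT18. Intervals on count ratios cover counting error only.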

Additional observations from a re-analysis of the deposited data

Results flagged for a closer look

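The effect of HDM201 differed between irradiated and proliferating cells for 1568 genes by the test of the difference in edgeR, and the genes below are from the panel and from those of smallest p. Each value is the log2 fold change in irradiated cells minus that in proliferating cells, with 3 libraries in each of the 4 groups.

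Among cytokines and NF-kB genes the difference was negative for IL1B (-7.24), IL1A (-5.73), CXCL8 (-5.24), IL6 (-4.27), ZC3H12A (-3.40), TNFAIP3 (-3.31), TNFAIP2 (-2.71) and SOD2 (-2.65). TFPI2 (-2.86) and VWA5A (-3.11) fell in irradiated cells and rose in proliferating cells. Among p53 targets and cell cycle inhibitors the difference was -3.11 for GDF15, -1.48 for CDKN1A, -0.94 for CDKN2B and 0.92 for TNFRSF10D.

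Positive differences were found for NRXN3 (2.34), ANO1 (2.01), MYH11 (1.99), RGMB-AS1 (1.84), MAP3K7CL (1.79), AMIGO2 (1.48), MEST (1.37), RGMB (1.32) and RGS4 (1.32). Of these, MYH11 fell in proliferating cells, by 1.36 on the log2 scale.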

How the results depend on the processing

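In irradiated cells, of 2922 comparisons of a named gene with an alternative, 2851 kept their direction and side of the threshold, 47 lost the call, 12 gained it and 12 changed sign, the last all in genes that were not called. RELA had -0.0045 and -0.0047 with FPKM + 0.1 and FPKM + 1, and COL1A1 -0.0033 with library totals. BAX had -0.0023 with a filter of 1 CPM in 3 libraries, -0.125 with library totals, -0.0456 and -0.0453 with FPKM + 0.1 and FPKM + 1, and -0.0221 with neither library that stood apart. With 1 replicate left out, BAX ranged from -0.0486 to 0.168 and CDKN1A from -0.0821 to 0.0057. The cause was not tested. In proliferating cells 15 of the 183 named genes were called, and 10 of these lost the call in at least 1 of 14 alternatives. The difference between states was called for 144 of them, and 14 lost it in at least 1 of 20.

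In irradiated cells, library totals gave 975 higher (95 by 2-fold) and 3354 lower, FPKM + 0.1 gave 861 higher (82 by 2-fold) and 624 lower by 2-fold, and FPKM + 1 gave 889 higher (50 by 2-fold) and 362 lower by 2-fold. At an adjusted p under 0.01, 2211 were called, 965 higher and 1246 lower. With 1 replicate left out, 3024 to 3323 were called, 1324 to 1578 higher and 1617 to 1838 lower, and by 2-fold 135 to 203 higher and 878 to 941 lower.

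In proliferating cells DESeq2 called 296 (212 higher, 84 lower), library totals 150 higher, no filter 51 lower, only the libraries compared 21 (17 and 4), and the fit without both libraries that stood apart 2833 (1589 and 1244). With 1 replicate left out the count was 43 to 1672, 35 to 867 higher and 8 to 805 lower. The difference between states had 322 positive and 1735 negative genes with library totals, 282 positive with only the libraries compared, and 3321 (1542 and 1779) with neither of those libraries. With 1 replicate left out it had 1127 to 2943, 336 to 1408 positive and 791 to 1535 negative. These counts turned most on Prolif_HDM201 replicate 3.

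Deviations of same-numbered replicates from their group means had correlations of 0.00865, -0.0275 and 0.0720. With 3 libraries a group, these values cannot show whether cultures were paired. With a replicate block 4098 genes were called, 2035 higher and 2063 lower.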
